A study of Rattus norvegicus with 12 samples.

Results

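The conjugating enzymes described here are the UDP-glucuronosyltransferases (UGT), the sulfotransferases (SULT) and the glutathione S-transferases (GST), the last including the microsomal glutathione S-transferases (MGST). Members were taken by name: every non-control probe whose gene name on the array began with Ugt, Sult or Mgst and a digit, or with Gst, a class letter (a, k, m, o, p, t or z) and a digit. This gave 53 genes under their current RefSeq names, or the array's name where no RefSeq match was found, of 35846 named on the array. They were 14 UGT, 14 SULT and 25 GST and MGST genes. Of these, 44 had a group whose 3 arrays all read the gene well above background, and these were tested (11 UGT, 11 SULT and 22 GST and MGST genes). The other 9, Ugt1a8, Ugt1a9, Ugt8, Sult1d1, Sult5a1, Sult6b1, Gstm6, Gsto2 and Gstt4, did not reach that signal.

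The 4 groups had 3 single-colour Agilent arrays each (12 in all), of RNA from cells of the livers of F344 rats, a DPPIV-positive strain. Small hepatocytes, which are progenitor cells of the hepatocyte lineage, had been grown without serum, with 10 ng/mL EGF, 10 mM nicotinamide, insulin and dexamethasone in the medium. They were sorted with magnetic beads for CD44 on day 9, grown on Matrigel, a basement membrane extract, and passaged. At passage 2 they spent 3 h on laminin-111 (LN111), on laminin-511 (LN511) or again on Matrigel (Mat). Mature hepatocytes (MH), taken directly from fresh liver and not cultured, were the control. No label ties a replicate to its own animal or culture, so the p-values below rest on how far these samples varied, and that variation may be technical.

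Conjugation makes a lipophilic compound more water-soluble so that it can leave the cell in bile or blood. UGT enzymes, which sit in the endoplasmic reticulum, attach glucuronic acid from UDP-glucuronic acid. Cytosolic SULT enzymes attach a sulfonate group from the donor PAPS. GST enzymes join glutathione to electrophiles, and the MGST enzymes do the same from within membranes. In the adult liver the hepatocyte is the main cell for all 3 reactions, and the pi class GST is known in the rat for being low in normal hepatocytes and high in bile ducts and preneoplastic foci.

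Levels are given as log2 of the processed signal against the 75th percentile of the same array, so a level of 0 is that percentile and a step of 1 is a doubling. Differences are from limma, with the standard error (SE) of the fit and Benjamini-Hochberg adjusted p-values, and a gene was called at an adjusted p under 0.05. The share of spots well above background ran from 52.18% to 62.75% over the arrays. The LN111-3 array was noisier than the others, with a median coefficient of variation of repeated probes of 8.54% (3.08% to 3.92% elsewhere). All MH arrays lay on slide 1 with Mat-1 and Mat-2, and all LN111 and LN511 arrays on slide 2 with Mat-3, so no slide held both MH and a laminin group. A slide term in those comparisons with MH rests on Mat, the group on both slides. Mat-1 and Mat-3, on different slides, were the closest pair of replicates (SD of their log2 differences 0.20, against 0.38 to 0.68 for the other pairs within a group). Of the hepatocyte markers 9 of 10 were called lower in culture, Alb by a difference of -1.37 ± 0.16 (limma adjusted p = 2.39e-05). The hepatic progenitor and biliary markers were called higher in 9 of 9 tested, with Krt19, Krt7 and Sox9 among those not well above background on any MH array. Kupffer cell markers were called lower in 10 of 10, with their mean level at 0.30 to 0.36 in MH and at -6.41 to -3.57 in culture. Sinusoidal endothelial markers were called lower in 7 of 8 (median -5.58), and stellate cell and fibroblast markers higher in 4 of 9 and lower in 0 (median 2.03). Of all genes tested between culture and MH, 30.8% were called higher and 42% lower. Cell number and RNA per cell cannot be told apart in such bulk samples, and the part of other cell types in the differences below was not tested.

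The first comparison set the mean of the 3 cultured groups against MH. Most conjugating enzymes were lower in culture: 36 of the 44 tested genes fell, 4 rose and 4 were not called. Calls were common among all genes, at 72.8% of the 18940 tested, with 30.8% called higher and 42% called lower. The members' median difference was -3.12, beside -0.18 for all genes. By class, UGT had 1 gene higher and 10 lower (median -3.52), SULT 2 higher and 7 lower (median -4.96), and GST with MGST 1 higher and 19 lower (median -2.70). In 34 of the 44 genes all 9 cultured arrays lay below all 3 MH arrays and in 3 they lay above, while among all genes 57.5% did not overlap and 35.3% lay below. Of the called genes, Sult1c2, Sult1c3, Sult1e1, Sult2a1, Ugt2a3, Ugt2b17 and Gstm6l passed the signal filter only through MH. Ugt2b7, Sult2b1 and Sult4a1 passed it only through cultured groups. For these the filter itself favoured the direction found, which enters the counts and medians above. The same filter applied to all genes. The share of all genes called higher depended on the scaling: it was 42.3% of the calls here, 26.8% with normexp background correction, 56.1% with quantile scaling and 78.1% with no scaling, where the median of all genes stood at -0.18, -0.40, 0.18 and 0.86. The members' median stayed between -3.12 and -2.07 under these settings.

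**Figure D1:**
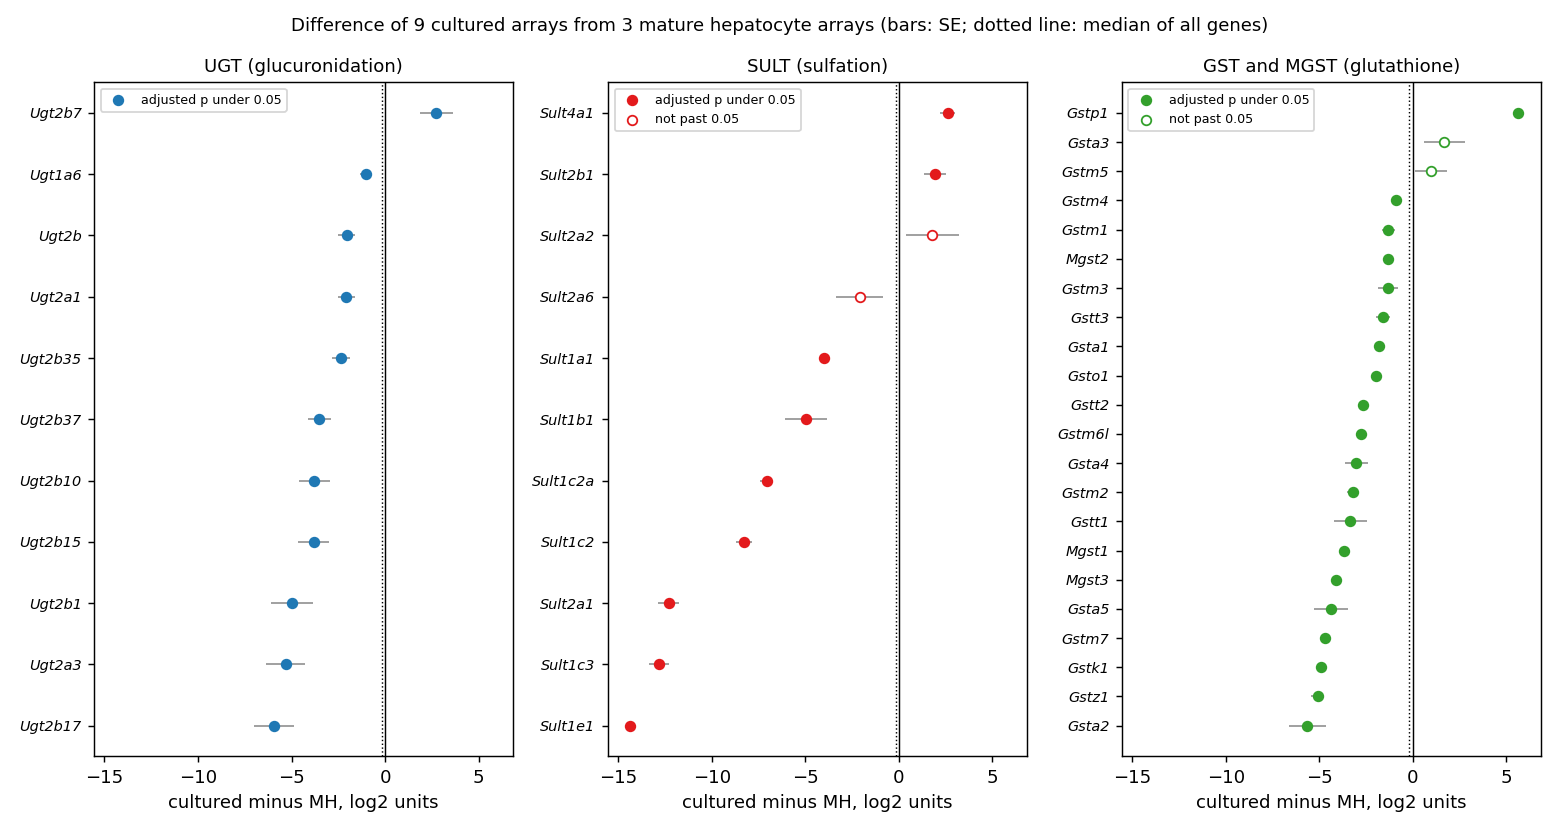
Difference between the 9 cultured and the 3 mature hepatocyte arrays for each of the 44 tested genes, in log2 units on the x axis, with the standard error of the fit as bars and filled points for adjusted p under 0.05. Most points lie left of 0 in each class, from -14.37 for Sult1e1 to -0.88 for Gstm4 among the called decreases, and Gstp1 stands at 5.60 on the right.

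Among the UGT genes, the Ugt2 family held 10 tested genes, of which 9 fell and 1 rose. Ugt2b1, which glucuronidates steroids and bisphenol A, was at 1.33, -1.80 and -3.25 on LN111, -0.05, -4.98 and -2.96 on LN511, 0.33, -2.30 and 0.44 on Mat and 3.61, 3.71 and 3.27 in MH. Every cultured array was below MH, but the cultured arrays themselves ran over a wider range than the gap to MH. The difference was -5.00 ± 1.12 (SE; limma adjusted p = 0.00219; 9 and 3 arrays). Ugt2b17, another steroid-conjugating form, differed by -5.96 ± 1.07 (limma adjusted p = 0.000511). It was well above background on 4 of the 9 cultured arrays and on all 3 MH arrays, where its level was -0.33, 0.33 and -0.04. Neither Ugt2b17 probe lists an accession of a current RefSeq gene, so the gene stands here under the array's name. Whether its signal is distinct from that of Ugt2b15 was not tested. Its other probe was not well above background on any array and gave -1.30. Ugt2a3 differed by -5.31 ± 1.03 (adjusted p = 0.000903) and was well above background on 3 of the 9 cultured arrays. With dim signals raised to the detection floor, the differences were -5.13 for Ugt2b17 and -4.11 for Ugt2a3, so the fitted sizes depend on signals at background. Ugt2b15, Ugt2b10 and Ugt2b37 also fell, with differences of -3.82, -3.78 and -3.52. The smaller decreases in this family were Ugt2b35 at -2.35, Ugt2a1 at -2.08 and Ugt2b at -2.06.

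Ugt2b7 was the UGT gene that rose, and it did so from a level at background. It was at -6.72, -2.45 and -4.85 on LN111, -5.37, -3.57 and -6.03 on LN511, -4.87, -2.54 and -5.21 on Mat and -7.41, -7.71 and -6.96 in MH. The replicate 2 array was the highest in each coating, and no MH array was well above background, against 7 of the 9 cultured arrays. The fitted difference was 2.74 ± 0.87 (limma adjusted p = 0.0155), and against the detection floor the cultured mean was at least 1.61-fold higher. An "at least" value takes the bright group's mean over that of a floor, which on each dim array is the lowest signal still well above background, or the probe's own signal where that is higher. The call was lost with normexp background correction (0.22, adjusted p = 0.695), with dim signals raised to the detection floor (0.75, adjusted p = 0.425), with the slide as a block (3.91, adjusted p = 0.0554) and without MH-2 (2.57, adjusted p = 0.0578).

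Ugt1a6, a UGT for small planar phenols, has 2 probes that moved differently, and their first 30 bases are printed to show that they read different parts of the locus. Both positions are those of the array file, in the rn4 build and on the plus strand.
Ugt1a6 brighter probe, chr9:87098271-87098330: actgaagtacattctaaagaaagtatgtct
Ugt1a6 second probe, chr9:87041702-87041761: ttacggtatgattttgtgttcgaatacccc
The accessions listed for the brighter probe belong to 3 RefSeq genes, Ugt1a5, Ugt1a6 and Ugt1a7c, which share their last exons, so its signal is a sum over Ugt1a transcripts. Those listed for the second probe belong to Ugt1a6 alone. By the brighter probe the level was 4.79, 4.15 and 3.77 on LN111, 5.15, 4.33 and 4.61 on LN511, 4.64, 4.21 and 4.84 on Mat and 5.28, 6.23 and 5.03 in MH. The groups overlapped, since LN511-1 exceeded MH-3, and MH-2 was the highest array. The difference was -1.02 ± 0.30 (limma adjusted p = 0.0106). By the second probe the level was -2.08, -2.26 and -2.95 on LN111, -2.25, -3.17 and -2.51 on LN511, -2.53, -3.24 and -2.53 on Mat and -3.51, -2.63 and -2.68 in MH, with overlap again and a difference of 0.33 that did not pass (adjusted p = 0.318). The call on the brighter probe was also lost without MH-2 (-0.66, adjusted p = 0.0698), with the mean of both probes (-0.35, adjusted p = 0.269), with the slide as a block (-1.34, adjusted p = 0.0612), and, with the sign turned, under quantile scaling (0.14) or no scaling (0.02). No probe named Ugt1a1 was among the members. Ugt8, which makes galactosylceramide and not a glucuronide, was well above background on 0 of the 12 arrays.

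Closely related Ugt2b genes may share signal. The probes of Ugt2b and Ugt2b37 matched at 86.3% of 51 aligned bases, with 7 mismatches. The 30-base stretch that holds most of the mismatches is printed for both, with the differing bases in capitals.
Ugt2b probe, chr14:22176113-22176172: tcagatttTCtcaGtgcactGGaggaagtC
Ugt2b37 probe, chr14:22419234-22419293: tcagatttGTtcaAtgcactTAaggaagtA
These are bases 22 to 51 of the first probe and 31 to 60 of the second, again placed in rn4. No other pair of probes from different members reached 80% identity over 40 or more bases. A further Ugt2b15 probe, not the one used for that gene, lists accessions of Ugt2b, Ugt2b15 and Ugt2b37 together. The probe chosen for Ugt2b37 gave -3.52 and its other probe -6.42, so the size of that decrease depended on the probe. How far the members of this family add to each other's signal was not tested.

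The SULT class held the largest decreases. Sult1e1, the estrogen sulfotransferase, was at 6.47, 6.24 and 6.14 in MH, and between -8.66 and -7.57 on the cultured arrays. No cultured array was well above background for it. The fitted difference was -14.37 ± 0.15 (limma adjusted p = 4.93e-12), and by the probe used MH was at least 5360-fold higher. That probe is listed under an older name in the array file and under Sult1e1 by its accession. The gene's other probe was dimmer in MH, with a mean level of 3.09 beside 6.28, and gave -11.14. Sult2a1, which sulfates hydroxysteroids and bile acids, was at 3.97, 5.63 and 4.64 in MH and between -8.65 and -6.29 in culture, again below background on all 9 arrays. By this probe MH was at least 1840-fold higher (limma adjusted p = 2.08e-08). The other Sult2a1 probe, not well above background on any cultured array, gave -8.34.

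The Sult1c genes fell together. Sult1c3 differed by -12.84 ± 0.54, Sult1c2 by -8.27 ± 0.42 and Sult1c2a by -7.07 ± 0.35, with limma adjusted p of 1.53e-08, 5.55e-08 and 4.58e-08. In MH, Sult1c3 was at 5.68, 5.81 and 5.87, and it was well above background on 2 of the 9 cultured arrays. Sult1c2 was above background on 3 of the 9, and Sult1c2a on all 9. The fitted sizes for Sult1c3 and Sult1c2 therefore rest on signals at background, and with these raised to the detection floor they were -11.73 and -7.93.

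Sult1a1, the main phenol sulfotransferase, kept a clear signal in culture. It was at 1.97, 1.87 and 1.47 on LN111, 2.05, 1.96 and 2.50 on LN511, 2.28, 1.88 and 2.40 on Mat and 6.06, 6.16 and 5.98 in MH. The cultured arrays lay close together and all below MH, with a difference of -4.03 ± 0.16 (limma adjusted p = 1.24e-08). Sult1b1, which acts on thyroid hormones and phenols, fell by a like amount but with far more spread. It was at 2.96, -0.94 and 0.60 on LN111, 2.16, -2.41 and 1.20 on LN511, 2.27, -1.29 and 2.35 on Mat and 5.44, 6.13 and 5.61 in MH. Each replicate 2 array was the lowest of its coating, and all stayed below MH (difference -4.96 ± 1.12, limma adjusted p = 0.00234).

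Sult4a1 and Sult2b1 rose from MH levels at background. Sult4a1, a form known from brain, was at -3.96, -4.51 and -4.66 on LN111, -3.01, -2.90 and -2.88 on LN511, -3.61, -3.84 and -3.74 on Mat and -5.00, -7.52 and -6.36 in MH. All 9 cultured arrays were well above background and no MH array was, so the groups did not overlap. The fitted difference was 2.62 ± 0.40 (limma adjusted p = 0.000174), at least 2.91-fold higher in culture, and its second probe gave 2.00. With normexp background correction the difference was 0.32, still called (adjusted p = 0.0367). Sult2b1, which sulfates cholesterol and pregnenolone, was at -4.19, -4.79 and -7.26 on LN111, -3.69, -3.18 and -4.24 on LN511, -4.26, -4.60 and -4.21 on Mat and -5.94, -7.60 and -5.69 in MH. LN111-3 fell within the MH range and the other cultured arrays lay above it, with 8 of 9 well above background. The difference was 1.92 ± 0.60 (limma adjusted p = 0.0149), at least 1.76-fold higher, and the call was lost with normexp background correction (0.08, adjusted p = 0.721), with the slide as a block (1.75, adjusted p = 0.21) and without MH-2 (1.33, adjusted p = 0.0952). The other Sult2b1 probe was not well above background on any array and gave -0.58, so the rise rests on a single probe.

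Sult2a2 and Sult2a6 were not called because the replicates disagreed. Sult2a6 was at 2.38, -1.18 and -0.23 on LN111, 2.15, -3.22 and 0.79 on LN511, 1.80, -1.58 and 2.00 on Mat and 1.47, 4.20 and 1.60 in MH. MH-2 stood apart from the other MH arrays, and several cultured arrays exceeded them (difference -2.10 ± 1.25, limma adjusted p = 0.152). Sult2a2 differed by 1.78 ± 1.42 (adjusted p = 0.281), with MH-2 again the highest MH array at -3.10, beside -5.04 and -6.63.

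In the GST class Gstp1 alone rose among 22 tested genes. Gstp1, the pi class enzyme, was at 4.57, 4.69 and 4.28 on LN111, 4.96, 3.84 and 4.30 on LN511, 4.49, 4.31 and 4.69 on Mat and -1.25, -1.28 and -0.89 in MH. Each cultured array was more than 4 units above each MH array, and all 12 were well above background. The difference was 5.60 ± 0.21 (limma adjusted p = 8.29e-09), the second probe gave 5.57, and the coatings gave 5.65, 5.50 and 5.64 for LN111, LN511 and Mat. With the slide as a block it was 5.37 (adjusted p = 8.9e-06), and for Mat against MH on slide 1 alone 5.54 (adjusted p = 6.4e-05). Of the progenitor and biliary markers measured beside it, 9 of 9 were also called higher.

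The promoters of 3 of the 4 members that rose are printed to show which motifs they hold (Sult4a1 had no entry), as the 250 bases before the RefSeq gene start in GRCr8. Capitals mark TGACNNNGC, the core of the antioxidant response element, and GCGTG, the core of the xenobiotic response element, either of them on either strand.
Gstp1, chr1:210769706-210769955, minus strand: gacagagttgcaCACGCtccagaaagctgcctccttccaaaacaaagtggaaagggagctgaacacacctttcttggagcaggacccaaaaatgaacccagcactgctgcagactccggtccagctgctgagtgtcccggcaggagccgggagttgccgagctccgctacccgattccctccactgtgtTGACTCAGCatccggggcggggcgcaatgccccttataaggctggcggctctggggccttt
Sult2b1, chr1:105397745-105397994, minus strand: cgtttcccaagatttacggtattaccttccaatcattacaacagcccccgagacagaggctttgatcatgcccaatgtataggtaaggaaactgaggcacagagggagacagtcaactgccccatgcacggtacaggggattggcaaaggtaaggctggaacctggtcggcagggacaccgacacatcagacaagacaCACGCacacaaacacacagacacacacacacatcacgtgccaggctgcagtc
Ugt2b7, chr14:21251285-21251534, plus strand: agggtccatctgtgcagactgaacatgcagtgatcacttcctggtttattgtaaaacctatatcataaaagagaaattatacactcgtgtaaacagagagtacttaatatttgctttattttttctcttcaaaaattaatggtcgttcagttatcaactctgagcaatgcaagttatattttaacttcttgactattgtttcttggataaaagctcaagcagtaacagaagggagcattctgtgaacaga
The Gstp1 window holds TGACNNNGC from position -61 on the coding strand, and GCGTG at -238 on the other strand. The Sult2b1 window holds GCGTG at -52, and the Ugt2b7 window held none of the 4 motifs searched. Over whole windows of 300 bases, from 250 before to 50 after the start, 46 of the 53 members had an entry. TGACNNNGC was in 7 of the 46 members (15.2%) and in 12.2% of all 27457 promoters. GCGTG was in 10 (21.7%), against 31.1% of all promoters. GTTAAT, an arm of the palindromic HNF1 site, was in 7 (15.2%), against 7.37%, and CAAAGTCCA, an HNF4 site, was in 0, against 0.375%. A match of letters is a description and does not show that a factor binds there.

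For 3 of the members with GTTAAT it lay wholly between positions -80 and -41, a window set for printing. Gsta3 held it on the other strand from -45, running just past that window, and Ugt1a6 at -190 and -29. The window is printed for the 3 members with the motif in capitals.
Sult2a2, chr1:85104573-85104612, minus strand: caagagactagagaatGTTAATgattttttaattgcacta
Sult2a6, chr1:84097849-84097888, minus strand: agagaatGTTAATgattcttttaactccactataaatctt
Ugt2a3, chr14:20851890-20851929, plus strand: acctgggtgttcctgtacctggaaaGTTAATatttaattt
Of the 7 members with GTTAAT, 4 were called lower in culture (Gsta1, Ugt1a6, Ugt2a3 and Ugt2b10), 0 higher, and 3 were not called (Gsta3, Sult2a2 and Sult2a6).

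The alpha class GST genes, which also reduce lipid peroxides, split by size of change. Gsta2 was at 2.55, -0.58 and 0.50 on LN111, 1.26, -3.06 and -0.55 on LN511, 1.66, -1.56 and 1.72 on Mat and 6.05, 5.48 and 6.02 in MH. All cultured arrays were lower than MH, with a difference of -5.63 ± 0.98 (limma adjusted p = 0.000429). Gsta5 at -4.37 and Gsta4 at -3.01, the latter acting on hydroxynonenal, also fell with a wide spread between cultured arrays. Gsta1 was at 4.40, 4.60 and 3.96 on LN111, 4.36, 3.85 and 4.04 on LN511, 4.29, 4.29 and 4.32 on Mat and 6.01, 6.26 and 5.89 in MH. It varied little in culture, and its decrease was the smallest of those called in the class, -1.82 ± 0.16 (limma adjusted p = 2.42e-06). Gsta3 differed by 1.69 ± 1.08 and was not called (adjusted p = 0.181). Its MH arrays ran from -5.55 to -0.31 with MH-2 the highest, and without MH-2 it was called higher (2.94, adjusted p = 0.0348).

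Of 7 tested mu class genes, 6 fell, with a median of -1.33 over the 7. Gstm7 and Gstm2 fell most, with differences of -4.68 and -3.22. Gstm1, an abundant mu form of rat liver, was at 4.47, 3.42 and 2.77 on LN111, 4.51, 3.55 and 3.89 on LN511, 4.31, 3.39 and 4.20 on Mat and 5.10, 4.91 and 5.39 in MH. The groups did not overlap, and the difference was -1.30 ± 0.35 (limma adjusted p = 0.00623). It was not called under quantile scaling (-0.14, adjusted p = 0.727), no scaling (-0.25, adjusted p = 0.577) or with the slide as a block (-1.57, adjusted p = 0.0602). Gstm3 was at -1.33 ± 0.54 with adjusted p = 0.0443, and lost its call without any one of 8 of the 12 arrays taken in turn. Gstm5 differed by 0.99 ± 0.86 (adjusted p = 0.322). LN111-3 read -6.90 there, the other cultured arrays -2.32 to -1.78 and MH -3.68 to -3.52, and without LN111-3 Gstm5 was called higher (1.54, adjusted p = 1.95e-06).

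The remaining GST genes all fell. Gstz1, which isomerises maleylacetoacetate in tyrosine breakdown, differed by -5.09 ± 0.34, and Gstk1 of mitochondria and peroxisomes by -4.88 ± 0.18 (limma adjusted p = 3.89e-07 and 6.3e-09). For Gstk1 the cultured arrays ran from -1.79 to -1.08 and MH from 3.42 to 3.56. Gstt1, the theta enzyme that acts on halomethanes, was at -6.69 on LN111-3, at -2.03 to -1.45 on the other cultured arrays and at 0.74 to 1.16 in MH. Its difference was -3.34 ± 0.88 (limma adjusted p = 0.00568) and -2.78 without LN111-3 (adjusted p = 3.55e-07), and it was not called with the slide as a block (-3.33, adjusted p = 0.11). Among the membrane forms Mgst1, the most abundant MGST of liver, differed by -3.67 ± 0.20 and Mgst3 by -4.12 ± 0.24 (limma adjusted p = 8.24e-08 and 1.31e-07). Mgst2, which can make leukotriene C from its precursor, had the smallest decrease of the 3, -1.31 ± 0.13 (limma adjusted p = 8.83e-06), and was not called with no scaling (-0.27, adjusted p = 0.34).

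**Figure D2:**
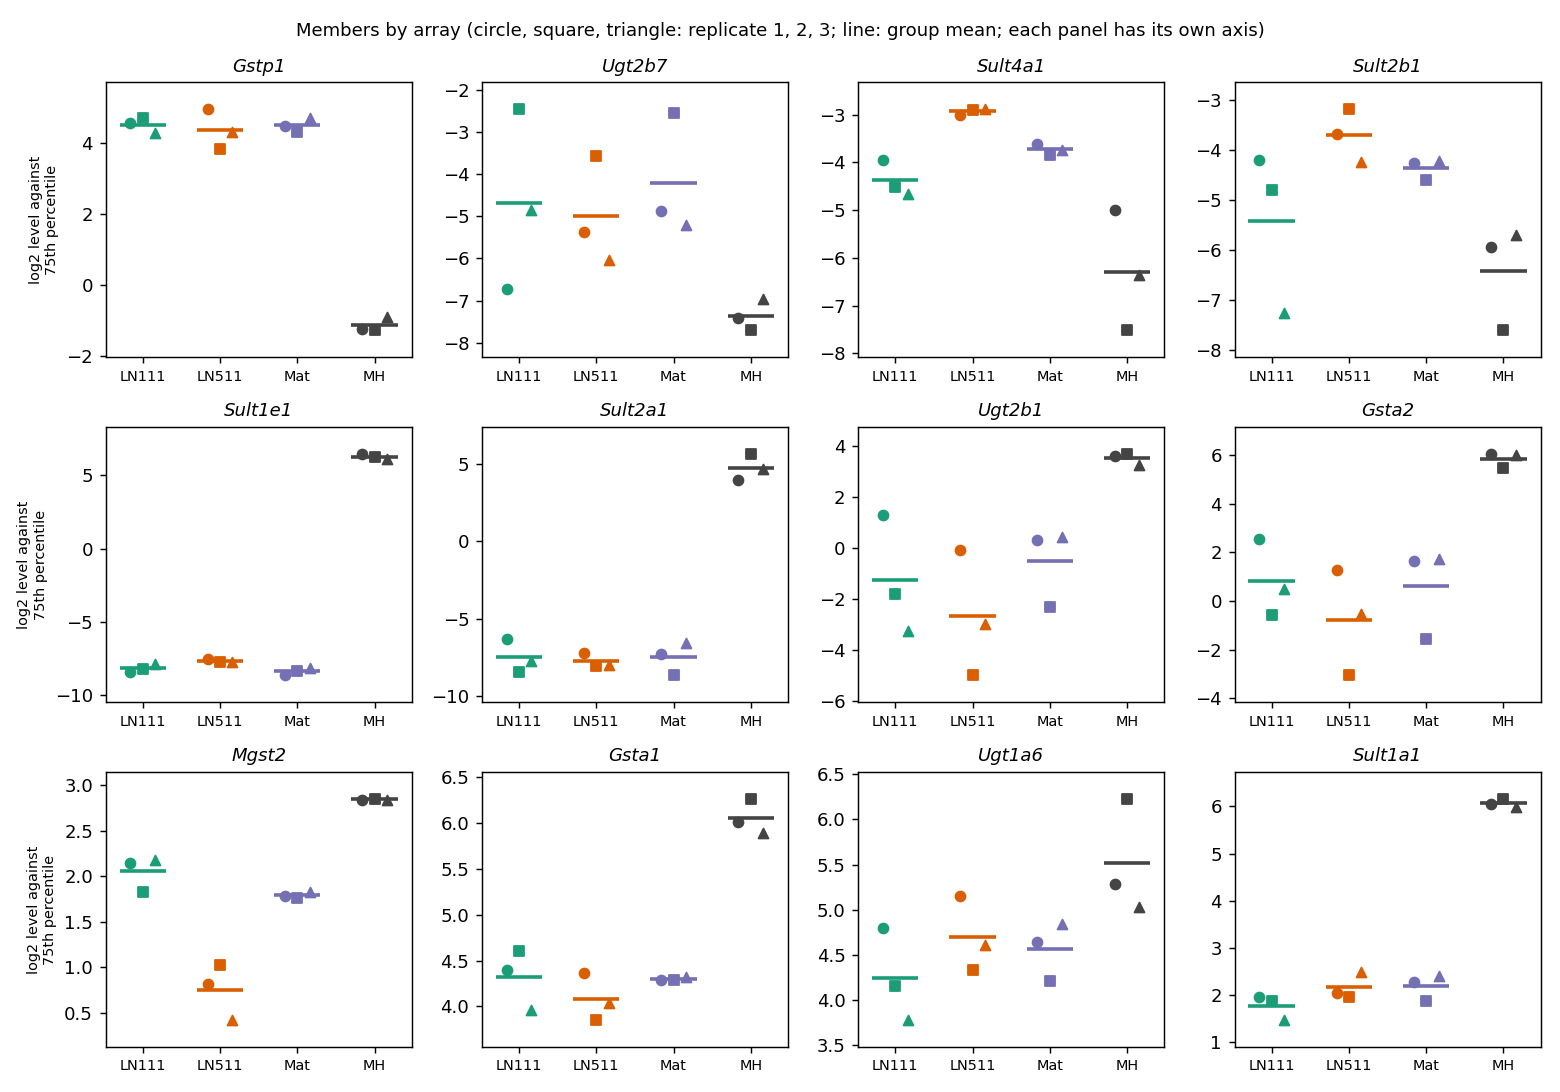
Log2 level against the 75th percentile of the array (y axis, scaled separately in each panel) for 12 members in the 4 groups, with a symbol for each replicate and a line at the group mean. Gstp1 lies between 3.84 and 4.96 in culture and below 0 in MH, Sult1e1 the reverse, and the Ugt2b1 and Gsta2 panels show the low replicate 2 array on LN511 and on Mat.

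Replicates of a coating spread far more for many members than for most genes, UGT genes above all. The median SD within a coating was 1.60 for UGT, 0.92 for SULT and 0.53 for GST with MGST, beside 0.29 for all genes. In MH the members' median SD was 0.21 and that of all genes 0.22. By class it was 0.18 for UGT, 0.45 for SULT and 0.17 for GST with MGST, so SULT genes spread more in MH too. The replicate 1 array lay above the replicate 2 array in all 3 coatings for 31 of the 44 members (70.5%), including 10 of 11 UGT genes, against 20.6% of all genes. The mean over tested UGT genes was -0.36, -2.02 and -2.25 on the 3 LN111 arrays, -0.83, -3.0 and -2.23 on LN511, -0.73, -2.57 and -0.68 on Mat and 1.20, 1.48 and 1.20 in MH. The mean of the 10 hepatocyte markers was 2.45, 0.32 and 1.11 on LN111, 2.47, 0.09 and 1.76 on LN511, 2.10, 0.15 and 2.24 on Mat and 5.20, 5.07 and 5.04 in MH. Both were lowest on the replicate 2 array within LN511 and within Mat, and the part of this in the spread of the members was not tested. Sult2a2, Sult2a6, Sult1b1, Ugt2b1 and Ugt2b17 spread most, with SDs of 2.57, 2.26, 2.16, 2.16 and 2.06. Gsta1, Sult1a1, Gstk1, Mgst1 and Gstp1 spread little, with SDs of 0.24, 0.27, 0.31, 0.35 and 0.36. Members that fell by a like amount, such as Gstk1 and Ugt2b1, thus differed in how closely the cultured arrays matched.

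**Figure D3:**
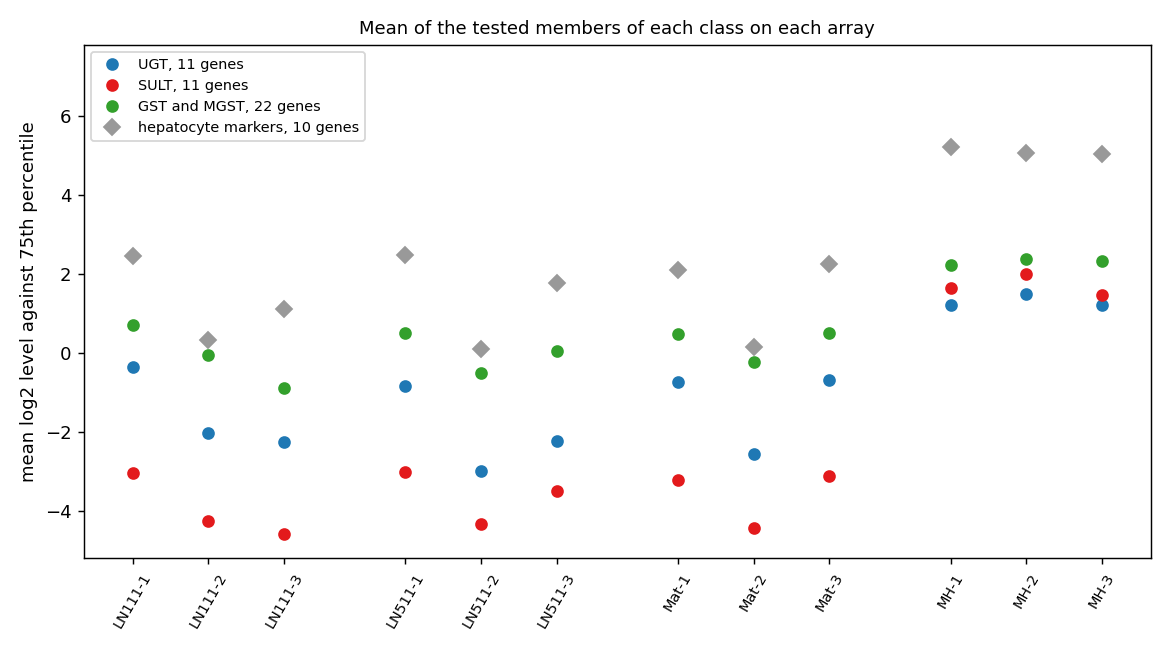
Mean log2 level of the tested members of each class on each of the 12 arrays, with the mean of the hepatocyte markers as grey diamonds. The cultured UGT means run from -3.0 to -0.36 and the MH means from 1.20 to 1.48, and the UGT mean on the replicate 2 array of LN511 and Mat lies below those of the other replicates.

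**Figure D4:**
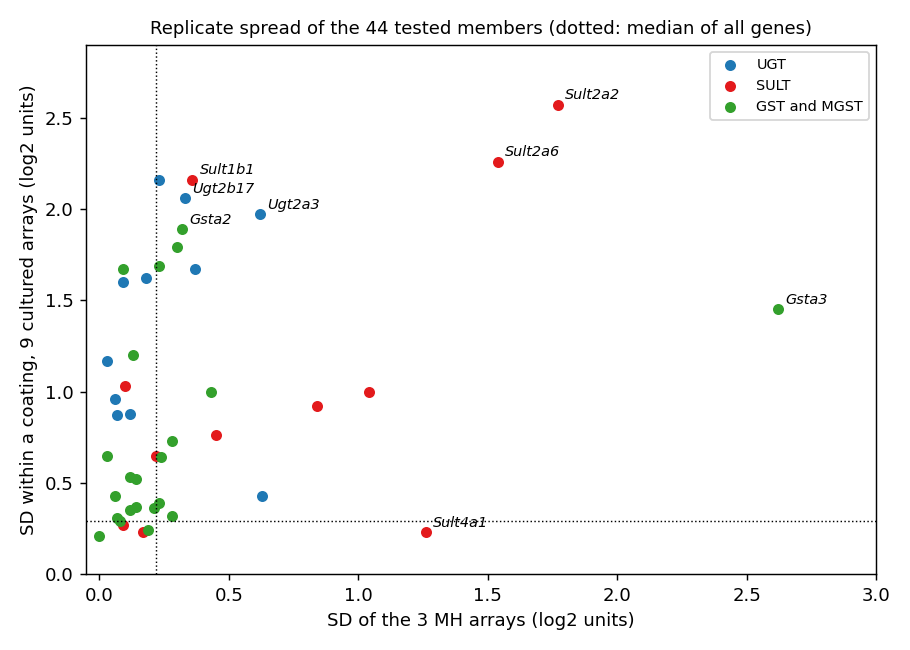
SD within a coating over the 9 cultured arrays (y axis) against the SD of the 3 MH arrays (x axis) for the 44 tested members, both in log2 units, with dotted lines at the medians of all genes, 0.29 and 0.22. Most UGT genes lie high and to the left, and Sult4a1, Gsta3, Ugt1a6 and Sult2b1 have the wider spread in MH.

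Each coating was also set against MH, with the MH arrays shared by all 3 comparisons. Of the 44 tested members, 39 were called on LN111 (3 higher, 36 lower), 37 on LN511 (3 and 34) and 39 on Mat (4 and 35), where 66.8% (27% higher, 39.8% lower), 67.6% (31.1% and 36.5%) and 67.3% (26.2% and 41%) of all genes were called. The medians of the members were -3.21, -2.98 and -2.83. Gstp1 and Sult4a1 were called higher in all 3 comparisons, although Sult4a1 was not with normexp background correction on LN111 (-0.04) or Mat (0.12). Its call on LN111 was also lost with the slide as a block (1.93, limma adjusted p = 0.125). Ugt2b7 was called on LN111 and Mat (adjusted p = 0.0447 and 0.0226) and not on LN511 (0.0702), and Sult2b1 on LN511 and Mat (0.00797 and 0.0302) and not on LN111 (0.253); the F test over the coatings called neither (adjusted p = 0.883 and 0.277). With the slide as a block the counts were 26, 32 and 37, while 8155, 8395 and 11816 of all 18940 genes were called. Mat-1 and Mat-2 against MH on slide 1 gave 40 called of 45, with 11718 of 18887 genes called.

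The coatings were then compared with each other in a fit of the 9 cultured arrays, which tested 37 members and 17919 genes. A moderated F test over the 3 coatings called 2 members, Mgst2 and Sult4a1, where 12.9% of all genes were called. Between LN111 and LN511 these were again the members called, 2 of 37, 1 higher and 1 lower, against 17.9% of all genes (6.12% higher, 11.8% lower). Between LN511 and Mat they were called too, again 1 in each direction, against 8.22% of all genes (7.07% higher, 1.16% lower). With the replicate number as a block, Mgst2 and Sult4a1 were still the members called, while the count over all genes went from 1473 to 2388. The arrays bore out this pairing only in part. LN511-3 deviated more with Mat-1 (correlation 0.31) than with Mat-3 (0.20), and Mat-3 more with LN511-1 (0.67). Between LN111 and Mat limma called 0 members and 0% of all genes, with 2 members and 2178 genes at an unadjusted p under 0.05. The smallest adjusted p there were 0.329 for Sult4a1 (-0.65 ± 0.19) and 0.39 for Mgst3 (-0.80 ± 0.32).

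Mgst2 was lowest on LN511. It was at 2.15, 1.83 and 2.18 on LN111, 0.82, 1.03 and 0.42 on LN511, 1.78, 1.76 and 1.83 on Mat and 2.84, 2.85 and 2.84 in MH. The LN511 arrays did not overlap with those of any other group. LN111 exceeded LN511 by 1.30 (limma adjusted p = 0.0042), called also under each alternative tried. LN511 was below Mat by -1.04 (adjusted p = 0.0126), a call lost with the slide as a block (-1.08, adjusted p = 0.143), on slide 2 alone (-1.08, adjusted p = 0.222), without Mat-1 (0.0541), without Mat-3 (0.0506) and with Mat-1 and Mat-3 averaged (0.0517).

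Sult4a1 was highest on LN511 and lowest among the coatings on LN111, with the array values given above. By that probe no pair of coatings overlapped. By the second probe LN511 was at -4.65, -4.79 and -4.13 and Mat at -4.98, -5.37 and -4.69, which overlap, with LN111 below both. LN111 was below LN511 by -1.45 (limma adjusted p = 0.0037), not called with no scaling (-0.95, adjusted p = 0.139). LN511 exceeded Mat by 0.80 (adjusted p = 0.0394), but was not called with the mean of both probes (0.64, adjusted p = 0.179) or the probe of median signal (0.49, adjusted p = 0.472). The call also did not hold with the slide as a block (0.81, adjusted p = 0.302), with quantile scaling (0.63, adjusted p = 0.14), with no filter (0.0647) or without any one LN511 or Mat array, where the adjusted p was 0.0792 to 0.122, nor without LN111-2 (0.0507). Stellate cell and fibroblast markers were called in the direction of Mgst2, 5 of 9 higher on LN111 than on LN511 and 5 of 9 lower on LN511 than on Mat, and progenitor and biliary markers in that of Sult4a1, 5 of 9 lower on LN111 than on LN511. Their part in either gene was not tested. Under the main settings the UGT class had 0 members called in each comparison of coatings. Its widest difference was Ugt2b1, LN511 against Mat, at -2.16 ± 1.53 (limma adjusted p = 0.484). With no scaling, Ugt2a1 (-1.37, adjusted p = 0.0412) and Ugt2b (-1.46, adjusted p = 0.0475) were called lower on LN511 than on Mat. In that setting 11004 of 17919 genes were called. With the replicate number as a block, Ugt2a1 was called between LN111 and LN511.

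The genes that supply and clear the conjugates gave mixed results against MH. The list counts here and below stand beside 30.8% of all genes called higher and 42% called lower in culture. For UDP-glucuronic acid, 5 of 7 tested genes fell and 1 rose. Ugp2, which makes UDP-glucose, differed by -3.09 ± 0.12 (limma adjusted p = 1.12e-08), and Ugdh, which oxidises it to UDP-glucuronic acid, by 0.08 ± 0.11 (adjusted p = 0.532). For PAPS, 6 of 9 fell and 2 rose. Papss2, a PAPS synthase, was at 2.86, 2.29 and 2.42 in MH and between -1.99 and -0.75 in culture, a difference of -3.83 ± 0.21 (limma adjusted p = 1.06e-07), and the sulfate transporter Slc26a1 differed by -4.97 ± 0.66 (adjusted p = 5.87e-05).

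For glutathione, 8 of 13 fell and 5 rose. Cbs and Cth, which make cysteine from homocysteine, differed by -7.33 and -5.96, and Gclc, the catalytic subunit for glutathione synthesis, by -1.58. Gpx2 was higher by 5.69 and Ggt1, which cleaves glutathione outside the cell, by 5.16, with 1 of 3 MH arrays well above background. The cystine transporter gene Slc7a11 was called higher too, with 9 of 9 cultured and 0 of 3 MH arrays well above background. Of 12 other conjugating and hydrolysing enzymes, 11 fell and 0 rose, with Gnmt, a glycine methyltransferase, at -7.56 and Baat, which joins bile acids to taurine or glycine, at -6.28.

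Of 8 transporters that carry conjugates out of the cell, 5 rose and 3 fell. Abcc1 and Abcc5 were higher by 3.48 and 3.26, and Abcc3 was called higher from MH signals at background, while the canalicular Abcc2 differed by -2.69 ± 0.57 (limma adjusted p = 0.00159). Of 17 regulators, 12 fell and 2 rose. The nuclear receptors Nr1i3 and Nr1i2, known inducers of conjugating enzymes, differed by -6.33 and -3.33, and Ahr (-0.17) and Nfe2l2 (0.23) were not called. Of 11 other NRF2 target genes, 7 rose and 2 fell, with Akr1b8 at 7.87 and Nqo1 at 3.17. Whether these changes bear on Gstp1 or on the members that fell was not tested.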

How the data were processed

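Per the file headers, the authors' deposited processed signal of each array is a linear intensity, detrended across the slide both additively and multiplicatively, with surrogate values used for dim spots; the submitters' processing notes name Agilent Feature Extraction 10.7. The deposited series value table holds the same intensity, unscaled and uncentred: it differed from the scanner files by at most 0.0072 on the log2 scale, with column medians for replicates 1 to 3 of 61.8, 59.0, 45.1 in LN111, of 45.5, 49.0, 43.6 in LN511, of 85.5, 90.9, 57.5 in Mat, then of 27.5, 27.6, 23.6 in MH.

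After control and outlier-marked spots were dropped, a probe's spots were averaged (45489 probes kept, 109 lost). Of 45598 probes, 21109 were named by RefSeq accession (GRCr8 table), 2631 by another accession, 5159 by symbol, 344 by an older symbol, and 16355 kept the file's name. By current names, the array's Ugt2b15 became Ugt2b35 and an accession of its Ugt2b17 became Ugt2b15. Log2 intensity minus each array's 75th percentile over non-control spots was tested with limma 3.58.1 (R 4.3.3), two-sided, Benjamini-Hochberg adjusted over all genes. A gene needed a probe well above background on all 3 arrays of a group, and its brightest such probe stood for it. MH comparisons used 1 fit of 12 arrays, coating comparisons 1 of 9. The code was tested on simulated data.

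The members and lists were chosen with earlier results of these data known. Members described were the called increases, up to 6 called decreases per class, every member called between coatings and a list of well-known forms; Gsta3, Gstm3, Gstm4, Gstm5, Sult2a2, Sult2a6, Ugt2a1, Ugt2b and Ugt2b35 were added after their values were seen, as were the context genes named. Alternatives covered background, scaling, filters, probe choice, slide, replicate number and each array left out; 4 were added after seeing the data. Replicate numbers were taken to pair arrays only between LN511 and Mat, where all 3 same-numbered pairs deviated together (correlations of 0.20 to 0.82). The replicate 3 pair was the weakest, and each of its arrays correlated better with the replicate 1 array of the other coating. The number of arrays limits the precision.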

Additional observations from a re-analysis of the deposited data

Results flagged for a closer look

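The 4 results below were picked out because a test of the difference between coatings passed. Mgst2 on LN111 exceeded LN511 by 1.30 (limma adjusted p = 0.0042), and on LN511 it differed from Mat by -1.04 (adjusted p = 0.0126). Sult4a1 on LN111 differed from LN511 by -1.45 (adjusted p = 0.0037), and on LN511 it exceeded Mat by 0.80 (adjusted p = 0.0394). By the probe used for each gene, all 3 arrays of one coating lay on one side of the 3 arrays of the other in each case. By the second Sult4a1 probe LN511 and Mat overlapped. The pair of differences from Mat was not called on slide 2 alone.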

How the results depend on the processing

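Of the 40 members called against MH, 30 were called under every alternative in which they were tested and 10 lost the call under at least 1 (Gstm1, Gstm3, Gstm4, Gstt1, Gstt3, Mgst2, Sult2b1, Ugt1a6, Ugt2b and Ugt2b7). With the slide as a block 33 of the 44 were called, and 10024 of all 18940 genes. With signal required on all arrays, fewer genes could be tested: 6 UGT genes called of 6 and 3 SULT genes of 4. Of all genes, 9397 of 12989 were called there. Mat against MH gave 25 calls under quantile scaling, and 12836 over all 18940 genes. LN111 against LN511 gave 1 with no scaling. The F test gave 5 with no scaling. LN511 against Mat gave 13 with no scaling, 1 under each of quantile scaling, no filter, the mean of probes, the probe of median signal and the percentile over probe means, and 0 with the slide as a block, on slide 2 alone or with Mat-1 and Mat-3 averaged. Leaving out each array in turn gave 0 to 2 there. Quantile scaling turned the sign of Gstm1 (Mat against MH, 0.07), Mgst2 (LN111 against MH, 0.11) and Ugt1a6 (cultured 0.14, Mat 0.30, each against MH). No scaling turned Gstm1 (Mat, 0.44), Mgst2 (LN111 0.21, Mat 0.56), Ugt1a6 (cultured 0.02, Mat 0.66), Gstm4 (cultured 0.16, Mat 0.75) and Gstt3 (Mat 0.28) against MH, and Sult4a1 between LN511 and Mat (-0.30). Normexp correction turned Sult2b1 (Mat, -0.13) and Sult4a1 (LN111, -0.04) against MH, and the probe of median signal turned Ugt1a6 (cultured 0.33, LN111 0.51, Mat 0.17). Over all genes, LN511 against Mat had 1473 calls, but 3552 with normexp correction, 11004 with no scaling, 817 with signal required on all arrays, 128 with the slide as a block, 2388 with the replicate block, 85 on slide 2 alone and 750 with Mat-1 and Mat-3 averaged. LN111 against LN511 had 3205, but 1986 with no scaling, 4879 with the replicate block, 1904 in a fit of those arrays alone and 1741 on slide 2 alone. Cultured against MH had 13792, but 22572 of 35846 with no filter. The causes were not tested.

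Among the coatings, 7 of 9 same-numbered pairs had a correlation of deviations over 0.1. The exceptions were replicate 3 of LN111 with LN511 (0.08) and with Mat (0.06), and no pair with MH exceeded 0.1. Of the 12 arrays, 10 correlated best with their own number, a hint from the data and not from the labels. For MH-1, MH-2, MH-3 and LN111-3, counted among these, the best correlation was only 0.05 to 0.10. With the replicate number as a block, LN111 against LN511 gave 4 calls, adding Gsta2 (1.61, adjusted p = 0.047) and Ugt2a1 (1.02, adjusted p = 0.0368), and LN511 against MH gained Ugt2b7 (2.37, adjusted p = 0.0252) and Gstm3 (-1.14, adjusted p = 0.0474), which Mat against MH gained too (-1.20, adjusted p = 0.0394). Genes near background (Ugt2b7, Sult2b1, Sult4a1) are limited by the low signal.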

Other observations

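Some genes that RefSeq now names among these families stood under other names on the array and were not members. Of these, Gstp3 differed between culture and MH by -10.38 (limma adjusted p = 7.07e-10), the opposite direction to Gstp1. Gsta6 differed by -1.84 (adjusted p = 0.000184), Sult6b2 by 2.04 (adjusted p = 0.000897) and Ugt2b34l1 by -1.27 (adjusted p = 0.143).

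Ugdh, not called between culture and MH, was at 1.47, 1.46 and 1.50 on LN111, 0.34, 0.36 and 0.41 on LN511, 0.97, 0.59 and 0.98 on Mat and 0.72, 0.82 and 0.92 in MH. The LN111 arrays lay above all others and the LN511 arrays below all others.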
